A study of Mus musculus with 12 samples.

Results

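Oligodendrocyte precursor cells (OPCs) divide and mature into oligodendrocytes, which myelinate axons. In cultured OPCs, 7 genes were followed whose RNA was higher than in untreated cultures after both IFN-γ and dexamethasone: Ada, Jade2, Ptgfrn, Ggt5, Abca1, Paqr8 and Pip4k2a. They are 7 of the 55536 genes in the tables and 7 of the 17919 genes with enough reads to be tested (at least 10 counts in at least 4 libraries), and all 7 passed that filter. The genes were chosen by their rise in summed read counts against untreated cells in these same libraries, with the results already known. Those changes are therefore described here, and the calls given for them are not independent tests. It is not the full set of such genes, since with DESeq2 and an adjusted p threshold of 0.05 there were 20 genes higher after both treatments, the 7 among them. That count depended on the fit. It was 3 genes by edgeR, with 1 of the 7 among them, 98 by DESeq2 with the replicate number as a block (all 7) and 62 by edgeR with that block (6 of the 7).

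The study examined how OPCs respond to inflammatory signals. Primary OPCs of P4 to P6 mouse pups were isolated through the Sox10-GFP reporter or with CD140a beads, and were kept dividing in PDGFaa and bFGF. The reporter mice were Sox10:Cre-RCE:LoxP, in which EGFP labels the whole oligodendrocyte lineage. Brains of several pups were pooled for each experiment, and the 4 replicates of a condition came from different litters. Ctr-OPCs received no treatment, Dexa-treated OPCs received 1 µM dexamethasone for 48 h, and IFN-γ-treated OPCs received 100 ng/ml of IFN-γ for 48 h. All 3 groups thus shared the growth factors and the culture, while the study's methods do not say which isolation route each library had. The labels also name the EAE mouse model for every library, although the growth protocol describes cells of pups. Ribosomal RNA was depleted and total RNA sequenced.

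The 11 complete libraries held 19209063 to 52074652 reads assigned to transcripts. The table of Dexa replicate 3 ended after 33.7% of the transcripts, so this library is given only for Jade2, Ggt5 and Paqr8, whose transcripts it lists whole. The 8 OPC markers summed to 818 to 1912 TPM (a level corrected for transcript length and library size) in Ctr, 984 to 2023 in Dexa and 686 to 1475 in IFN-γ. DESeq2 called 0 of them under either treatment, and with the replicate number as a block it called 5 lower after IFN-γ and 1 higher after Dexa. Gpr17, a receptor of committed precursors, had means of 349, 287 and 103 TPM in the same order. In every library, 13 of 14 microglial markers and 8 of 8 endothelial markers stayed under 1 TPM. Of 8 interferon response genes, 8 were called higher after IFN-γ and 0 after Dexa, and of 8 glucocorticoid response genes, 6 were called higher after Dexa and 0 after IFN-γ by DESeq2. With the block, 8 and 3 of the glucocorticoid response genes were called higher after Dexa and IFN-γ. After IFN-γ others of this list were called lower, 1 without the block (Zbtb16, log2 -0.56) and 2 with it (Zbtb16, log2 -0.56, and Sgk1, log2 -0.82). In bulk RNA, fewer cells of a type and less RNA per cell cannot be told apart.

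IFN-γ acts through a surface receptor and its kinases, and many of the genes it raises carry gamma-activated sites (GAS) or interferon-stimulated response elements (ISRE) in their promoters. Dexamethasone is a synthetic glucocorticoid that enters the cell, binds the glucocorticoid receptor and carries it to the nucleus, where the receptor occupies palindromic glucocorticoid response elements (GRE) and also restrains many inflammatory genes. The products of the 7 genes work in different places. Gene positions below are those of GRCm38. Ada encodes adenosine deaminase, which converts adenosine to inosine. Abca1 encodes the transporter that loads cholesterol onto apolipoproteins. Ggt5 encodes a γ-glutamyltransferase that cleaves glutathione conjugates such as leukotriene C4. Pip4k2a encodes a lipid kinase that makes PI(4,5)P2 from PI5P. Paqr8 encodes a membrane progestin receptor, Ptgfrn an immunoglobulin-superfamily protein that partners with tetraspanins, and Jade2 a PHD-finger protein of histone acetyltransferase complexes.

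The promoters of members that moved together under a cytokine and a steroid were read for the elements of both pathways. RefSeq promoter windows on GRCm38.p6, from 250 bases before to 50 bases after a transcription start, matched 5 of the 7 genes and gave 6 windows, as Paqr8 has a pair of starts. The windows shown hold at least 1 match, and capitals mark the matches, read 5′ to 3′ on the gene's strand. They lie at chr2:163750190-163750489 (minus strand) for Ada, chr4:53159846-53160145 (minus strand) for Abca1, and chr1:20890298-20890597 and chr1:20917590-20917889 (plus strand) for the upstream and the downstream start of Paqr8.
Ada: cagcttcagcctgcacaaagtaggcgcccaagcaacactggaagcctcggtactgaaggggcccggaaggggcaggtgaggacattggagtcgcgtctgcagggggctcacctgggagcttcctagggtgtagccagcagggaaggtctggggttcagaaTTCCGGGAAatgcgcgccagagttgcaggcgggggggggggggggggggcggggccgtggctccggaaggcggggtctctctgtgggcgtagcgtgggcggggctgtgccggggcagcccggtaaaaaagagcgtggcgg
Abca1: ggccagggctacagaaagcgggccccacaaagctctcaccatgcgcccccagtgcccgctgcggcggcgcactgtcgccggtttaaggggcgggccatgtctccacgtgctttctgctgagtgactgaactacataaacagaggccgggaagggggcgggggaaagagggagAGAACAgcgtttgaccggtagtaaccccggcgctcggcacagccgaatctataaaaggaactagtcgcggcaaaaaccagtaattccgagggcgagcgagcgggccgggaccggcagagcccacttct
Paqr8 upstream start: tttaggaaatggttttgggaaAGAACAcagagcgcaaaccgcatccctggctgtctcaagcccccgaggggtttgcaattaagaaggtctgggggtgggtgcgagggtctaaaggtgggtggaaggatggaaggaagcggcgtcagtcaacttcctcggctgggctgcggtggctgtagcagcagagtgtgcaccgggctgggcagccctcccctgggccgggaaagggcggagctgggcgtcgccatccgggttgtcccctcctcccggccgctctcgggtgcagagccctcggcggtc
Paqr8 downstream start: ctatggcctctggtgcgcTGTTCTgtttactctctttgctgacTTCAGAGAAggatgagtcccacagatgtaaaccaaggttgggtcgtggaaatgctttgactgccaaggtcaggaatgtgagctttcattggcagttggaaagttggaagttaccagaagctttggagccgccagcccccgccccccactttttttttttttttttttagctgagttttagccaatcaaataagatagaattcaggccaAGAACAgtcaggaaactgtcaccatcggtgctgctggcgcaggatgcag
Both strands were searched for GAS (TTCNNNGAA, present in 8.30% of all 32851 windows), ISRE (2 copies of GAAA with 2 free bases between them, 3.44%), GRE (the palindrome GNACA and TGTNC with 3 free bases between them, 0.475%) and a single arm of the GRE (TGTTCT, 19.0%, which can lie within a GRE). The Ada window held a GAS match, TTCCGGGAA, that began 90 bases before the start (chr2:163750321-163750329). The downstream Paqr8 window held a GAS match, TTCAGAGAA, 207 bases before the start (chr1:20917633-20917641). It also held 2 single GRE arms, 232 bases before the start and 1 base after it. The Abca1 window held a single GRE arm 78 bases before the start, and the upstream Paqr8 window held another 229 bases before the RefSeq start. No ISRE or full GRE match was found in the 6 windows, and the windows of Pip4k2a and Ptgfrn held none of these letters. A match describes the sequence and is not evidence of binding.

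On the length-corrected scale, the 7 genes spanned a wide range in untreated cells. In Ctr-OPCs (n = 4), the mean TPM ± SD was 11.0 ± 3.88 for Paqr8, 4.29 ± 0.176 for Pip4k2a, 2.28 ± 0.238 for Ptgfrn, 2.17 ± 0.481 for Abca1, 1.498 ± 0.245 for Ada, 0.423 ± 0.127 for Jade2 and 0.0340 ± 0.0324 for Ggt5. The ranges of Ptgfrn and Abca1 overlapped, as did those of Abca1 and Ada, while the other neighbours in this order did not overlap. After Dexa (n = 3) the means were 21.7 ± 6.14 for Paqr8, 8.78 ± 4.50 for Ptgfrn, 5.96 ± 0.604 for Pip4k2a, 4.13 ± 0.340 for Abca1, 3.29 ± 0.282 for Ada, 1.83 ± 0.501 for Jade2 and 0.355 ± 0.521 for Ggt5, with overlapping ranges for Ptgfrn and Pip4k2a alone among neighbours. After IFN-γ (n = 4) they were 22.0 ± 5.30 for Paqr8, 12.1 ± 4.59 for Ptgfrn, 5.90 ± 1.46 for Ada, 5.80 ± 0.582 for Pip4k2a, 4.31 ± 1.35 for Abca1, 1.85 ± 0.579 for Jade2 and 0.461 ± 0.252 for Ggt5. Here the ranges of each neighbouring pair from Paqr8 down to Abca1 overlapped, while Jade2 and Ggt5 stood apart. Ptgfrn thus moved from below Pip4k2a in Ctr-OPCs to above it in mean level under both treatments, and Ada moved from below Abca1 to above it after IFN-γ, in each case with overlapping ranges in the treated group.

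In normalized counts (reads divided by DESeq2's size factor for the library), no complete treated library of the 7 genes fell within the range of Ctr-OPCs for either treatment. Over all genes tested, IFN-γ-treated OPCs lay wholly above Ctr-OPCs for 8.66% and Dexa-treated OPCs for 2.58%. Because the list was drawn from these contrasts, nothing follows from its own count. The DESeq2 log2 changes of the 7 genes against Ctr-OPCs had a median of 1.85 after IFN-γ (range 0.29 to 4.08) and 1.14 after Dexa (range 0.49 to 4.13), against -0.02 and -0.01 over all genes. DESeq2 called all 7 higher after either treatment, as it did 8.02% of genes after IFN-γ and 0.508% after Dexa. Several of these calls were not kept when a library was left out. When each of the 11 libraries was left out in turn, the DESeq2 call after Dexa was missing in 8 of 11 fits for Abca1, 6 for Paqr8, 2 for Ggt5 and 1 for Pip4k2a, and the call after IFN-γ in 6 of 11 for Pip4k2a. Ada, Jade2 and Ptgfrn were called in all 11 fits for both treatments. The same libraries chose the genes, so a call that was kept is no support for a member. When all 12 libraries were fitted without the block, Paqr8 was also not called after Dexa, and Ggt5 had no adjusted p under either treatment. By edgeR's quasi-likelihood test 6 of the 7 were called after IFN-γ, all but Pip4k2a, and 1 of the 7, Jade2, after Dexa, against 6.06% and 0.117% of all genes. With the replicate number as a block, DESeq2 again called all 7 after either treatment, at 15.2% and 2.05% of all genes, and edgeR called 7 after IFN-γ and 6 after Dexa, all but Ggt5, at 16.0% and 1.31%. Both contrasts use the same Ctr libraries, so a shared deviation of these libraries would enter both.

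**Figure D1:**
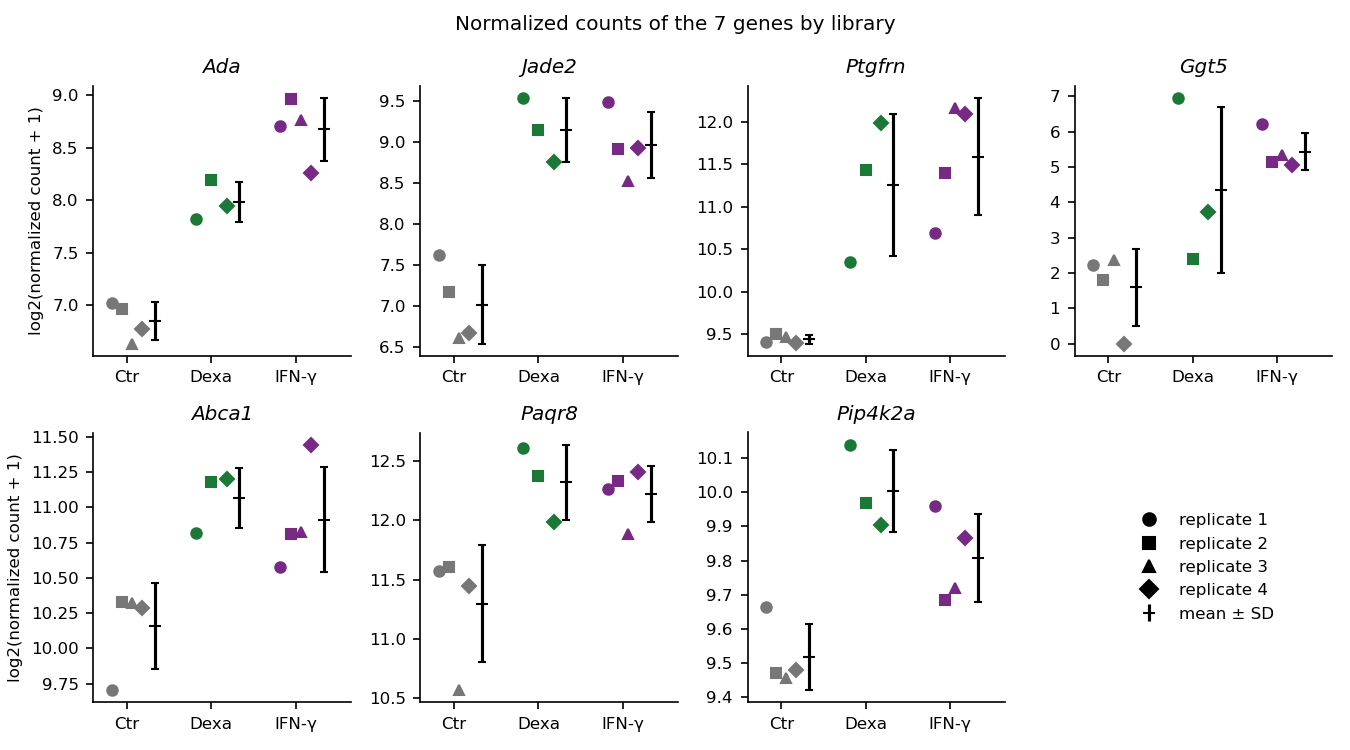
Log2 of the normalized count plus 1 for each of the 7 genes (panels) in every complete library, with Ctr-OPCs in grey, Dexa-treated OPCs in green and IFN-γ-treated OPCs in purple. Symbols mark the replicate, black bars the mean ± SD, and axes start at different values in each panel. The treated libraries sit above all Ctr libraries in every panel, with Ggt5 in Dexa replicate 2 (4.21 normalized counts) just above Ctr replicate 3 (4.13).

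Ada, the adenosine-degrading enzyme (chr2:163726584-163750239, minus strand), was the 1 member of the 7 called between the treatments, where DESeq2 called 13.1% of all genes. Its normalized counts were 129, 124, 98.5 and 109 in Ctr-OPC replicates 1 to 4. They were 224, 290.5 and 245 in Dexa replicates 1, 2 and 4, and 416, 497, 434 and 306 in IFN-γ replicates 1 to 4. The 3 groups formed 3 separate ranges, with Dexa between Ctr and IFN-γ, and IFN-γ lay wholly above Dexa for 11.2% of all genes. Paired with the Ctr library of the same replicate, the log2 difference was 0.79 to 1.22 after Dexa (mean 1.06 ± 0.23 SD, 3 pairs) and 1.48 to 2.13 after IFN-γ (mean 1.82 ± 0.29 SD, 4 pairs). IFN-γ-treated OPCs held 1.63-fold the mean count of Dexa-treated OPCs (413 ± 79.8 against 253 ± 33.8, SD), and IFN-γ was higher in 3 of 3 pairs. The log2 fold change of IFN-γ over Dexa was 0.71 (SE 0.19, 95% interval 0.33 to 1.08, DESeq2 adjusted p = 0.0033), and it was called in 16 of 16 alternative settings with adjusted p from 1.97e-05 to 0.0429. These settings refit the same libraries, whose contrasts with Ctr chose Ada, so the p-values are not independent of that choice. Nearly all Ada reads were assigned to its full-length coding transcript Ada-201, 98.7%, 98.6% and 99.6% on average in Ctr, Dexa and IFN-γ.

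The 16 tested genes of purine and adenosine handling were listed for their role, but with earlier results of these data known. Among them, 0 were called higher and 2 lower after IFN-γ by DESeq2, and 0 were called after Dexa (2 at an unadjusted p under 0.05), with the same counts from edgeR. Adora2b, the low-affinity adenosine receptor, fell from 84.2 ± 19.0 normalized counts in Ctr-OPCs to 26.0 ± 10.6 after IFN-γ (log2 -1.70, SE 0.32, adjusted p = 1.87e-06, n = 4 and 4). Entpd1, the ectonucleotidase CD39 that breaks down extracellular ATP, also fell (log2 -0.69, SE 0.19, adjusted p = 0.00281). With the replicate block DESeq2 called 9 higher and 3 lower after IFN-γ, and 1 higher and 2 lower after Dexa. For edgeR with the block the counts were 8 and 3 after IFN-γ, and 1 and 0 after Dexa, where Adora2b and the nucleoside transporter Slc29a1 did not pass (adjusted p = 0.0981 and 0.0906). Adora1, the high-affinity adenosine receptor, was called higher under both treatments with the block (log2 0.57 after IFN-γ, adjusted p = 9.43e-06, and 0.78 after Dexa, adjusted p = 4.73e-07, DESeq2) and under neither without it (adjusted p = 0.293 and 0.406). Pnp and Hprt, which act after Ada in purine breakdown and salvage, were called higher after IFN-γ with the block only (log2 0.64 and 0.84).

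Jade2, the PHD-finger protein (chr11:51813455-51857653, minus strand), had changes of like size under both treatments. Normalized counts were 197, 143, 97.1 and 101 in Ctr-OPC replicates 1 to 4. Dexa replicates 1, 2 and 4 held 740.4, 567 and 433, and IFN-γ replicates 1 to 4 held 718, 482, 367 and 488. Replicate 1 was the highest library in each of the 3 groups, and the treated groups overlapped each other. The paired log2 difference was 1.90 to 2.09 after Dexa (3 pairs) and 1.75 to 2.26 after IFN-γ (4 pairs), the narrowest spread among the 4 genes whose mean difference passed 1 after IFN-γ. Dexa replicate 3, on a scale set by the genes it lists whole, held 272 normalized counts of Jade2 against 91.7 in Ctr replicate 3, a log2 difference of 1.56. The log2 fold change of IFN-γ over Dexa was -0.18 (95% interval -0.79 to 0.44, DESeq2 adjusted p = 0.821).

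The transcript makeup of Jade2 varied between libraries. Jade2-203 took 76.4% ± 15.6 (SD, n = 4) of the gene's reads in Ctr-OPCs, 53.7% ± 14.2 (n = 4) in Dexa-treated OPCs and 62.7% ± 15.4 (n = 4) in IFN-γ-treated OPCs, and most other reads went to Jade2-201. Both are coding transcripts of the minus strand, and they start at positions 51857653 (Jade2-201) and 51857396 (Jade2-203) of chromosome 11. Under Dexa the share fell by 22.7 percentage points, with p = 0.0857 in a two-sided exact permutation test (adjusted p = 0.6 over 14 share tests), where 4 against 4 libraries can reach 0.0286 at the lowest. The 12 tested genes listed around JADE and MYST acetyltransferase complexes include the histone demethylase Kdm1a. DESeq2 called 0 of them against Ctr-OPCs under either treatment (1 and 0 at an unadjusted p under 0.05), and edgeR called 0. With the block, 1 was called higher after IFN-γ, Kdm1a (log2 0.20), and 2 lower, Ing4 and Kat6b (log2 -0.28 and -0.30).

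Ptgfrn, the tetraspanin partner (chr3:101040232-101110278, minus strand), had a steady level in untreated cells and a response that differed by replicate. Its normalized counts were 676, 725, 704 and 669 in Ctr-OPC replicates 1 to 4, a highest library only 1.08 times the lowest. Dexa replicates 1, 2 and 4 held 1302, 2772 and 4069, and IFN-γ replicates 1 to 4 held 1655, 2702, 4583 and 4384. Replicate 1 was the lowest under both treatments and replicates 3 and 4 the highest, with a span of 3.13-fold in Dexa and 2.77-fold in IFN-γ. The paired log2 differences of replicates 1, 2 and 4 were 0.94, 1.93 and 2.60 after Dexa, and those of replicates 1 to 4 were 1.29, 1.90, 2.70 and 2.71 after IFN-γ. Within a replicate the treatments lay close, with IFN-γ minus Dexa at 0.35, -0.04 and 0.11 in replicates 1, 2 and 4. The fitted log2 fold change of IFN-γ over Dexa was 0.30 (95% interval -0.49 to 1.08, DESeq2 adjusted p = 0.748).

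**Figure D2:**
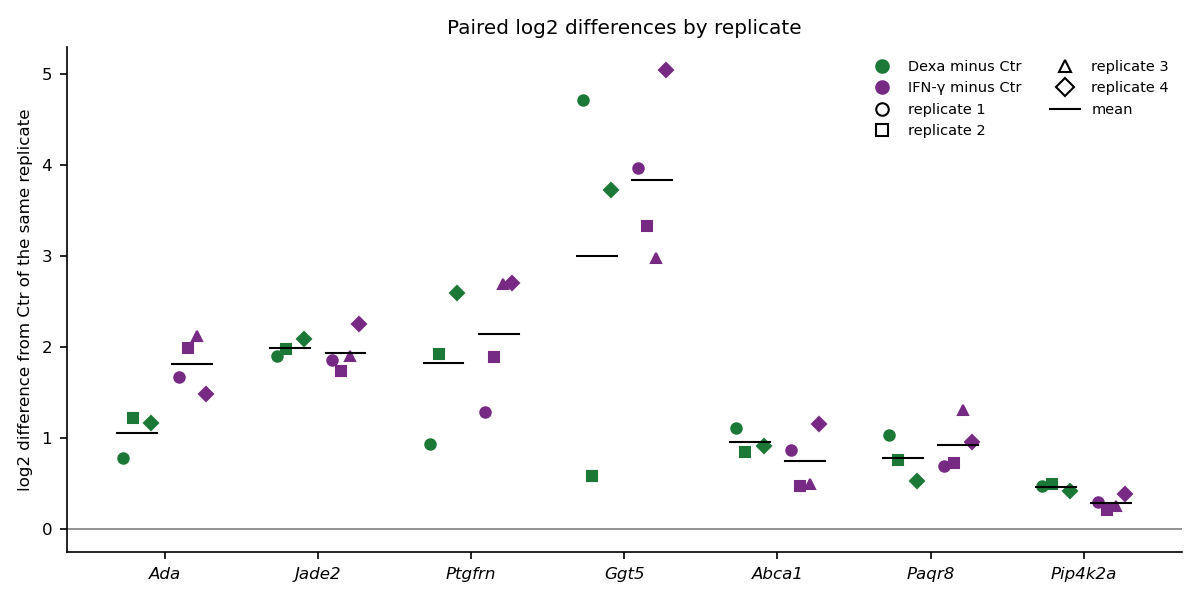
Log2 difference of the normalized count plus 1 between a treated library and the Ctr library of the same replicate, for each gene, with Dexa in green, IFN-γ in purple, symbols for the replicate and a black line at the mean. All points lie above 0. Ptgfrn is lowest in replicate 1 (0.94 and 1.29) and highest in replicate 4 (2.60 and 2.71) under both treatments, and Ggt5 after Dexa runs from 0.58 to 4.72.

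Among 12 tested tetraspanins and partners, DESeq2 called 1 higher after IFN-γ and 0 after Dexa (1 at an unadjusted p under 0.05), edgeR called 0 under either (4 and 1), and DESeq2 with the block called 5 higher and 1 lower after IFN-γ and 1 higher after Dexa. The gene called without the block was Adam10, a protease held by tetraspanins, by 0.23 on the log2 scale (SE 0.07, adjusted p = 0.0059). With the block, Cd81 and Cd151 were called higher after IFN-γ (log2 0.33 and 0.77) and the laminin receptor subunit Itga6 lower (log2 -0.55). Igsf8, a relative of Ptgfrn in the EWI immunoglobulin family and a tetraspanin partner itself, was called higher after Dexa with the block (log2 0.34, DESeq2 adjusted p = 0.0345), but not by edgeR with the block (adjusted p = 0.116), which called 0 of this list after Dexa.

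Ggt5, the leukotriene- and glutathione-cleaving enzyme (chr10:75589340-75617200, plus strand), was barely detected in untreated cells. Its reads numbered 4, 4, 6 and 0 in Ctr-OPC replicates 1 to 4, so any fold against Ctr-OPCs rests on few counts. IFN-γ replicates 1 to 4 held 73, 36, 34 and 25 reads, or 72.5, 34.0, 39.6 and 32.1 normalized counts, each far above the 0 to 4.13 of Ctr-OPCs. Dexa replicates 1, 2 and 4 held 113, 5 and 7 reads, or 122, 4.21 and 12.2 normalized counts. The Dexa mean was thus set by replicate 1, and without that library the fitted log2 change against Ctr-OPCs dropped from 4.13 to 1.48. Dexa replicate 3 listed 6 reads, 11.4 normalized counts on the 12-library scale against 3.90 in Ctr replicate 3. In TPM, Dexa replicates 2 and 4 (0.0341 and 0.0751) lay below Ctr replicate 1 (0.0780), so on that scale Dexa and Ctr overlapped.

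No difference between IFN-γ and Dexa was called for Ggt5 over the complete libraries (log2 -0.05, 95% interval -1.87 to 1.77, DESeq2 adjusted p = 0.984). Without Dexa replicate 1, IFN-γ was higher by 2.57 on the log2 scale (adjusted p = 0.00245). This was the only one of 18 alternative settings that called it (adjusted p 0.00245 to 0.999). The fit of 12 libraries without the block gave no adjusted p. Ggt5-207, annotated as a transcript with a retained intron, took 65.2% ± 24.0 of Ggt5 reads per library after IFN-γ (SD, n = 4) and 53.5% ± 19.6 after Dexa (n = 4). The Dexa mean of shares gives equal weight to 3 libraries of 5 to 7 reads, and in Dexa replicate 1, which held 113 of the 131 Dexa reads, Ggt5-207 took 38.3% and the coding Ggt5-201 50.3%. Over all reads of a group, transcripts with a retained intron held 70.5% after IFN-γ and 48.3% after Dexa, and coding transcripts 29.5% and 51.7%. The full-length coding transcript Ggt5-201 held 56.8 estimated reads in Dexa replicate 1, 21.0 in IFN-γ replicate 1, 14.6 in IFN-γ replicate 2 and under 3 in each of the other libraries. Of 14 tested genes of glutathione and leukotriene metabolism, 3 were called higher and 0 lower after IFN-γ, 5 higher and 0 lower with the block. They were Slc7a11, the cystine importer that feeds glutathione synthesis (log2 1.54, SE 0.33, adjusted p = 7.09e-05), Alox5, the lipoxygenase at the head of leukotriene synthesis (log2 1.00, SE 0.34, adjusted p = 0.0303), and the peroxidase Gpx1 (log2 0.42, SE 0.12, adjusted p = 0.00487). edgeR called Slc7a11 and Gpx1 but not Alox5 (adjusted p = 0.0849). After Dexa, 0 were called by either tool without the block (1 at an unadjusted p under 0.05) and 2 with it by DESeq2, Slc7a11 (log2 0.71, adjusted p = 9.11e-06) and the family member Ggt7 (log2 0.35, adjusted p = 0.0112). edgeR with the block called Slc7a11 (adjusted p = 0.0231) and not Ggt7 (0.0509).

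**Figure D3:**
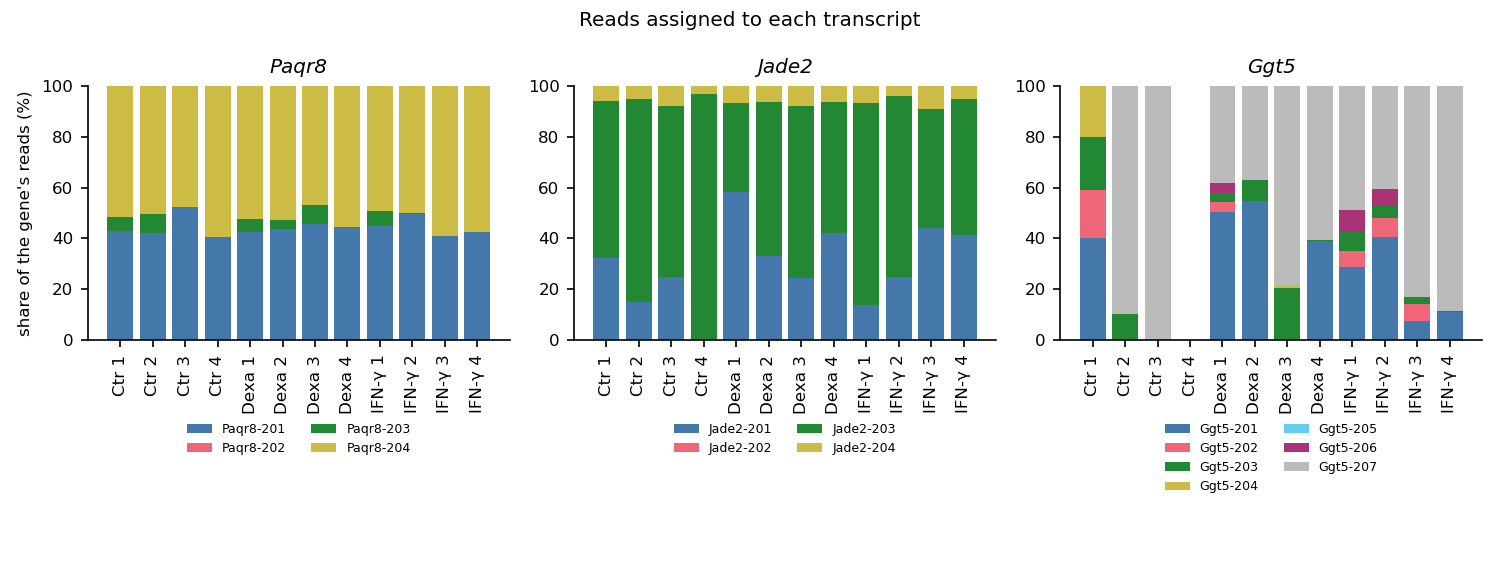
Share of each gene's estimated reads (percent, stacked to 100) assigned to each annotated transcript of Paqr8, Jade2 and Ggt5, with one bar per library. Paqr8-201 and Paqr8-204 keep like shares throughout, Jade2-203 ranges from 34.9% in Dexa replicate 1 to 96.8% in Ctr replicate 4, and the Ggt5 bars of Ctr-OPCs rest on 0 to 6 reads, with no bar for Ctr replicate 4.

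Abca1, the cholesterol exporter (chr4:53030787-53159895, minus strand), was less than 2-fold higher on average after either treatment. Normalized counts were 833, 1287, 1280.5 and 1246 in Ctr-OPC replicates 1 to 4. They were 1807, 2321 and 2357 in Dexa replicates 1, 2 and 4, and 1525, 1796, 1810.1 and 2786 in IFN-γ replicates 1 to 4. Replicate 1 was the lowest in every group, and the treated groups overlapped each other. The mean count was 1.86-fold that of Ctr-OPCs after Dexa and 1.70-fold after IFN-γ, with paired log2 differences of 0.85 to 1.12 and 0.48 to 1.16. IFN-γ over Dexa was -0.13 on the log2 scale (95% interval -0.59 to 0.34, DESeq2 adjusted p = 0.832). Its coding transcript Abca1-201 held over 99% of the reads in each group mean.

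Of 18 tested genes of sterol transport and sensing, the only DESeq2 call was Pltp, the phospholipid transfer protein, which rose after IFN-γ from 71.8 ± 47.2 to 239 ± 99.8 normalized counts (log2 1.74, SE 0.44, adjusted p = 0.00141, n = 4 and 4). It stood at 72.7 ± 20.7 after Dexa (n = 3). No gene of this list had an unadjusted p under 0.05 after Dexa by DESeq2 or edgeR. With the block both tools called 4 genes higher and 4 lower after IFN-γ, and after Dexa DESeq2 called 1 higher and edgeR 0. Nr1h2, a nuclear oxysterol receptor that drives Abca1 transcription in many cells, was among the genes higher after IFN-γ with the block (log2 0.41, adjusted p = 1.60e-04) and stood at 0.07 after Dexa (adjusted p = 0.985). Npc1, which moves cholesterol out of lysosomes, was lower after IFN-γ with the block (log2 -0.50, adjusted p = 1.84e-08). The gene called after Dexa was Srebf1, a regulator of lipid synthesis, by DESeq2 with the block alone (log2 0.50, adjusted p = 0.0122, against 0.116 by edgeR with the block and 1 by either tool without it).

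Paqr8, the membrane progestin receptor (chr1:20890606-20939650, plus strand), had the highest mean TPM of the 7 in each group. Normalized counts were 3040.1, 3111, 1517 and 2796 in Ctr-OPC replicates 1 to 4. They were 6250.2, 5296 and 4046 in Dexa replicates 1, 2 and 4, and 4916, 5146, 3773 and 5436 in IFN-γ replicates 1 to 4. Replicate 3 was the lowest in Ctr and in IFN-γ, and Dexa replicate 3, at 2496 on the 12-library scale, was also the lowest of its group. That value lay within the Ctr range on the same scale (1433 to 2937) but above its own Ctr partner, by 0.80 on the log2 scale. The paired log2 differences were 0.53 to 1.04 in the complete Dexa pairs and 0.69 to 1.31 after IFN-γ. In TPM, IFN-γ replicate 3 (14.1) fell below Ctr replicate 2 (15.4). IFN-γ over Dexa was -0.11 (95% interval -0.63 to 0.41, DESeq2 adjusted p = 0.873).

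The reads of Paqr8 were split between an upstream and a downstream transcript. Paqr8-204 (chr1:20890606-20939650) begins after the end of the upstream promoter window shown above, which was set by a start that RefSeq places further upstream, so that window is not placed on the start of this transcript. It took 52.2% ± 5.05 of reads in Ctr-OPCs, 51.8% ± 3.61 in Dexa and 53.9% ± 5.04 in IFN-γ (SD, n = 4 each). Paqr8-201 (chr1:20917840-20939055), whose start lies within the downstream window, took 44.6%, 44.2% and 44.5%. The upstream share differed from Ctr by -0.42 percentage points after Dexa and 1.68 after IFN-γ (two-sided exact permutation p = 0.971 and 0.771, adjusted p = 1 for both). Of the 14 share tests over the 7 genes, 0 gave an unadjusted p under 0.05. Of 11 tested genes of the PAQR family and progesterone-binding proteins, 0 were called by DESeq2 under either treatment (3 after IFN-γ and 1 after Dexa at an unadjusted p under 0.05), nor by edgeR (2 and 0). The block called 1 higher and 4 lower after IFN-γ, among them Paqr7, another membrane progestin receptor (log2 -0.53, adjusted p = 0.00337), and Paqr9 (log2 -0.55, adjusted p = 0.00424), and 0 after Dexa.

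Pip4k2a, the PI5P kinase (chr2:18842255-18998126, minus strand), had the smallest log2 change of the 7 under both treatments. Normalized counts were 809.6, 708, 702 and 713 in Ctr-OPC replicates 1 to 4, 1127, 1000.3 and 957 in Dexa replicates 1, 2 and 4, and 995, 821, 842 and 932 in IFN-γ replicates 1 to 4. Replicate 1 was the highest library in each group, and the lowest IFN-γ library lay just above the highest Ctr library. Paired log2 differences were 0.42 to 0.50 after Dexa and 0.21 to 0.39 after IFN-γ, and Dexa was above IFN-γ in 3 of 3 pairs. That difference did not pass the threshold (log2 of IFN-γ over Dexa -0.20, 95% interval -0.41 to 0.01, DESeq2 adjusted p = 0.261, and 0.133 with the replicate block). Over 99% of the reads fell on Pip4k2a-201 in each group mean. Of 20 tested phosphoinositide kinases and phosphatases, 0 were called after IFN-γ (4 at an unadjusted p under 0.05, 3 by edgeR, which called 0) and 2 after Dexa by DESeq2, the phosphatases Inpp4b (log2 1.05, SE 0.21, adjusted p = 4.43e-04) and Ocrl (log2 0.53, SE 0.11, adjusted p = 6.71e-04). Neither was called by edgeR without the block (adjusted p = 0.11 and 0.125). With the block DESeq2 gave 3 higher and 4 lower after IFN-γ, Inpp4b among the higher (log2 0.51, adjusted p = 7.65e-05), and the same count of 2 after Dexa.

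**Figure D4:**
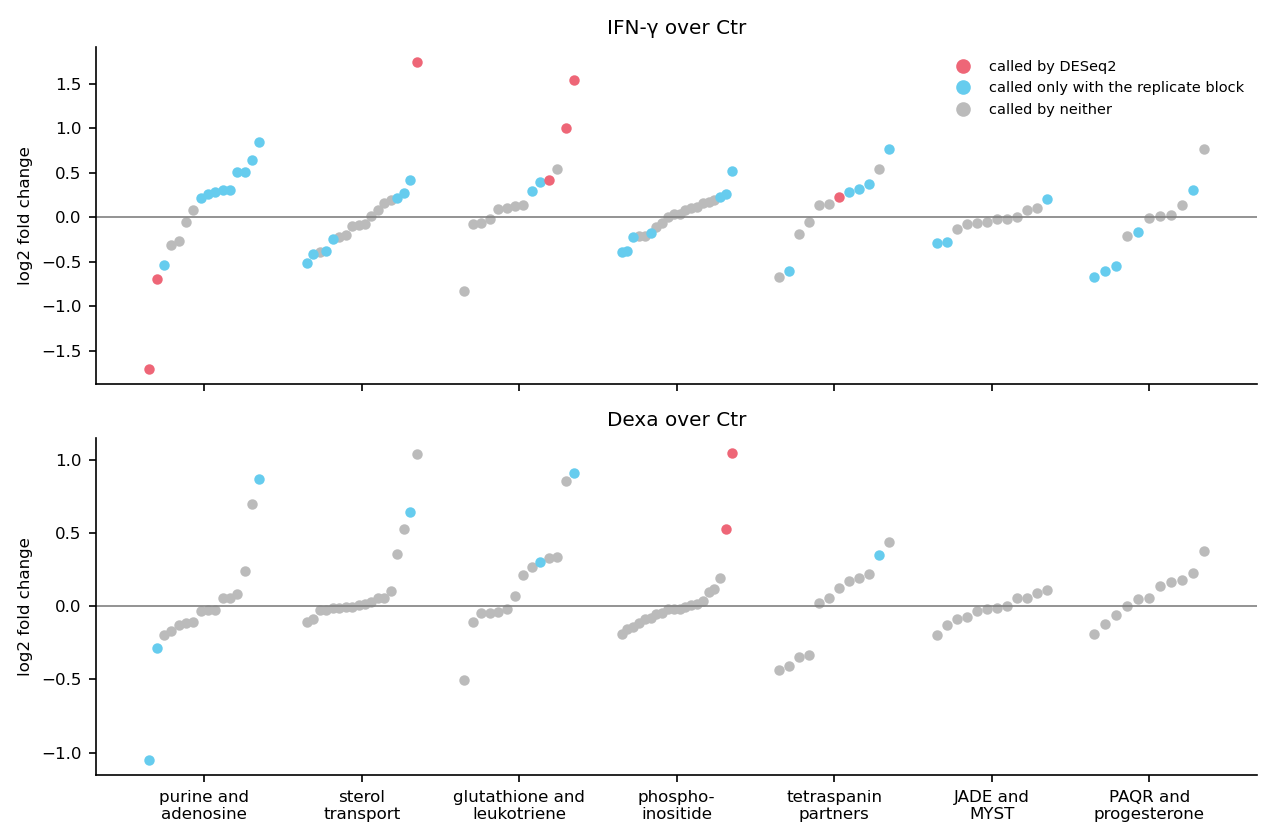
DESeq2 log2 fold change over Ctr-OPCs of the 103 tested genes in 7 lists around the members (members left out), ordered by size within each list, for IFN-γ (top) and Dexa (bottom). Red points were called by DESeq2, blue points only with the replicate block and grey points by neither. The calls without the block number 7 after IFN-γ and 2 after Dexa.

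Across the 7 lists, 118 listed genes were in the tables and 103 were tested. DESeq2 called 5 higher and 2 lower after IFN-γ, where 12.8% of all genes were called in either direction, and 2 higher and 0 lower after Dexa, where 0.547% were. For edgeR the counts were 5 in all after IFN-γ and 0 after Dexa, with 22 and 6 at an unadjusted p under 0.05. With the block the counts were 28 higher and 18 lower after IFN-γ (29.2% of all genes in either direction) and 7 higher and 2 lower after Dexa (2.57%). The median log2 change of the listed genes was 0.03 after IFN-γ and 0.00 after Dexa. The members stood at 1.85 and 1.14, but they were chosen by these changes, so nothing follows from that gap.

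IFN-γ and Dexa were also compared directly. That contrast did not draw up the list, but it is the difference between the contrasts that did, in the same libraries. The choice of genes therefore constrains it, and its p-values are not independent of that choice. DESeq2 called 1 of the 7 members, Ada, and 13.1% of all genes in either direction. Ada was also the only member called by edgeR (8.77% of all genes), by DESeq2 with the block (31.6%) and by edgeR with the block (33.7%). The other 6 did not pass the threshold under DESeq2, under edgeR or with the replicate block in either tool, and their 95% intervals allowed differences of up to 0.41 (Pip4k2a) to 1.87 (Ggt5) on the log2 scale. The absence of a call does not show that the treatments raised these genes equally.

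**Figure D5:**
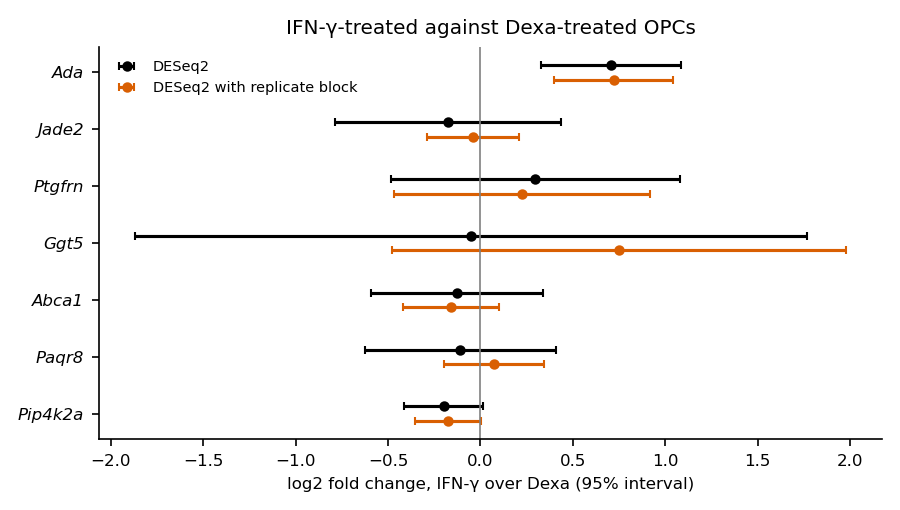
Log2 fold change of IFN-γ-treated over Dexa-treated OPCs for the 7 genes, as points with 95% intervals, from DESeq2 (black) and from DESeq2 with the replicate block (orange). The intervals of Ada (0.33 to 1.08 and 0.40 to 1.04) lie above 0 and those of the other 6 genes include 0.

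The genes whose counts followed each member most closely were named by Pearson's r of log2(normalized count + 1) over the 11 libraries. These libraries fall into 3 treatment groups, so r mostly reflects shared differences between groups, and it is given as a description. Ada was followed by Osmr (r = 0.949), Cfb (0.945) and Htr1b (0.941), which like Ada lay lowest in Ctr, intermediate in Dexa and highest in IFN-γ in mean count. Jade2 and Paqr8 shared Jdp2 (0.961 and 0.937) and Palm2 (0.950 and 0.932) among their closest 3, the others being Lpp for Jade2 (0.951) and Aldoc for Paqr8 (0.944). Ptgfrn was followed by Mcts1 (0.944), Ssbp2 (0.914) and Dnah9 (0.906), and Abca1 by Serinc3 (0.923), Mcts1 (0.893) and Sema3e (0.888). Pip4k2a was followed by H60b (0.936), Rcan2 (0.927) and Jade2 itself (0.922). The closest gene to Ggt5 was 4933400F21Rik (0.936), with the low counts of Ggt5 limiting that measure.

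The summed levels of markers of other cell types are given as ranges and were not tested, and few single markers were called without the block. The neuronal ranges of the groups lay apart, as did the pericyte and fibroblast range after IFN-γ. Those of the astrocyte and oligodendrocyte markers overlapped. The summed level of 8 astrocyte markers was 149 to 317 TPM in Ctr, 308 to 477 in Dexa and 269 to 435 in IFN-γ, and Aldoc, the gene closest to Paqr8, had means of 103, 219 and 206 TPM. DESeq2 called 2 of the 8 higher after IFN-γ, Aldoc and Gfap, and 0 after Dexa. With the block it called 4 higher and 3 lower after IFN-γ, and 2 higher after Dexa, and S100b and Aqp4 were among the lower ones (means of 22.8 and 3.97 TPM in Ctr, 8.28 and 2.09 after IFN-γ). The 8 neuronal markers summed to 13.7 to 16.5, 18.0 to 21.2 and 27.3 to 60.2 TPM in the same order, of which Tubb3 held means of 10.4, 13.0 and 35.4 TPM. Of 5 tested, Tubb3 and Syt1 were called higher after IFN-γ and 0 were called after Dexa. With the block, 2 were higher and 2 lower after IFN-γ, the lower ones being Snap25 (3.01 to 2.39 TPM) and Gad1 (0.430 to 0.159 TPM), and 1 was higher after Dexa. The 8 oligodendrocyte markers summed to 58.2 to 235, 72.8 to 256 and 49.7 to 147 TPM, with 0 called after Dexa either way. After IFN-γ, Enpp6 alone was called lower without the block (log2 -3.81). With the block, Cnp and Myrf were called lower instead (log2 -0.65 and -1.63). The 10 pericyte and fibroblast markers summed to 1.35 to 2.34, 2.10 to 4.32 and 5.49 to 7.75 TPM, with Acta2 at 1.10, 2.29 and 5.45 TPM and 8 of the 10 under 1 TPM in every library. Of 8 tested, Acta2 and Lum were called higher after IFN-γ and 0 after Dexa, and the block added 1 lower after IFN-γ, Vtn (0.197 to 0.0460 TPM). Of 5 endothelial markers tested, Flt1 was called higher after Dexa (log2 1.11, DESeq2 adjusted p = 0.0425), and again with the block. Kdr was called lower after IFN-γ with the block only (log2 -0.81), and both genes stayed under 1 TPM in every library. The part of these differences in the changes of the 7 genes was not tested.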

How the data were processed

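Reads were trimmed and quantified by the authors with Salmon 0.8.2, who deposited for each library the estimated count (expected count of reads) and the TPM of every transcript. The transcriptome build given to Salmon and its strand setting are not given in the sources used here. The identifiers matched GENCODE release M21 (Ensembl 96, GRCm38), with 0 transcripts lacking a gene, and reads of overlapping genes may be assigned to either. A further 3 tables hold the authors' own DESeq2 comparisons (mean counts, log2 fold changes, their errors and p-values), which were not used here.

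The 7 genes and all gene lists were chosen with earlier results of these data known. Estimated counts were summed per gene and rounded. Tests covered the 17919 genes that reached 10 counts in 4 or more of the 11 complete libraries, with DESeq2 1.42.0, the tool named in the study's methods, as a Wald test on the group without covariates or shrinkage, Benjamini-Hochberg adjustment and a threshold of 0.05. Dexa replicate 3 was left out of these fits because its table lists 47855 of 141862 transcripts. A separate fit held all 12 libraries over the 6319 tested genes that it lists whole. edgeR 4.0.16 (quasi-likelihood, TMM), other size factors, no filter, leaving out each library and the replicate number as a block were alternatives. The scripts were tested on simulated counts.

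The replicate numbers of the labels were checked for pairing. Deviations from the group means correlated at 0.404 to 0.722 between libraries of the same number and at -0.614 to 0.495 between different numbers. The numbers were taken to pair the libraries, although these ranges overlap. The main fits and the share tests did not use the pairing. The study's methods give replicates as different litters. No pair of libraries of a group agreed within sampling noise (chi-square per degree of freedom from 22 to 223).

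The transcript named for a gene's share is the one with the highest mean share, and shares were compared with two-sided exact permutation tests. In 3 against 4 libraries such a test can reach 0.0286 at the lowest, as with 4 against 4. Genes named from the lists are at most the 4 of largest change per list and comparison among those called with or without the block, from which the text takes examples, and 3 genes were named as most like each member. A depth of 19209063 to 52074652 reads leaves counting error large for Ggt5 alone among the members. TPM values served for levels and markers only.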

Additional observations from a re-analysis of the deposited data

Results flagged for a closer look

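In 17 groups of 4 libraries, the gap between the most extreme library and its nearest neighbour was compared with the range of the group, and 3 exceeded Dixon's 95% critical value (chance alone exceeds it in about 5% of groups). All of these libraries are replicate 1. Ggt5 after Dexa was 115 normalized counts in replicate 1 on the 12-library scale, with the nearest library at 11.5, a gap of 0.932 of the range. Abca1 in Ctr-OPCs was 833 normalized counts in replicate 1, with the nearest library at 1246 (0.909). Pip4k2a in Ctr-OPCs was 809.6 normalized counts in replicate 1, with the nearest library at 713 (0.893). The deviation of Ctr replicate 1 was downward for Abca1 and upward for Pip4k2a.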

How the results depend on the processing

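The changes of the 7 genes against Ctr-OPCs kept their direction in every alternative run, but not their calls. Leaving out 1 library ended the DESeq2 call after Dexa in 8 of 11 fits for Abca1, 6 for Paqr8, 2 for Ggt5 (without Ctr replicate 2 or Dexa replicate 1) and 1 for Pip4k2a (without Dexa replicate 1), and that of Pip4k2a after IFN-γ in 6. The fit of 12 libraries without the block ended the call of Paqr8 after Dexa and gave Ggt5 no adjusted p under either treatment. Called members in IFN-γ against Dexa numbered 1 in every alternative but the fit without Dexa replicate 1, where Ggt5 joined Ada (leave-one-out range 1 to 2). With the replicate block, DESeq2 calls of listed pathway genes rose from 7 to 46 after IFN-γ and from 2 to 9 after Dexa. In edgeR such calls rose from 5 to 48 after IFN-γ and from 0 to 4 after Dexa. Leave-one-out ranges were 6 to 16 after IFN-γ, the highest without Ctr replicate 1, and 2 to 3 after Dexa. For the members, the block changed no DESeq2 call. In edgeR it added Pip4k2a after IFN-γ and 5 calls after Dexa. The cause was not tested.

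Differences of IFN-γ from Dexa changed sign in 17 instances, and 1 of these, Ggt5 without Dexa replicate 1, was called. Leaving out 1 library gave -0.38 to 0.038 for Jade2, -0.038 to 0.70 for Ptgfrn, -0.60 to 2.57 for Ggt5 and -0.26 to 0.044 for Paqr8, and the upper ends of Jade2, Ggt5 and Paqr8 and the lower end of Ptgfrn came without Dexa replicate 1. With all 12 libraries the values were 0.014 for Jade2, 0.23 for Ggt5 and 0.076 for Paqr8. With the replicate block added to these, an alternative chosen after seeing the data, they were 0.040, 1.05 and 0.14. With the block in 11 libraries, Ggt5 stood at 0.75 (DESeq2) and 0.51 (edgeR) and Paqr8 at 0.073 in both. Leave-one-out changes of Ggt5 after Dexa ran from 1.48 (without Dexa replicate 1) to 4.67.

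Few reads limit Ggt5, and 3 complete Dexa libraries limit every comparison with Dexa.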
